A study of Mus musculus with 4 samples.

Results

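Transcripts of 10 genes of the Notch pathway were followed in single cells of mouse bone and bone marrow: the receptors Notch1, Notch2 and Notch3, the ligands Jag1 and Jag2, and the target genes Hes1, Hey1, Hey2, Heyl and Nrarp. They were chosen by symbol out of the 32285 genes of the count matrices, and all 10 were found in both libraries. No rule on their values was used, but earlier results of these data were known. The cells came from the femurs and tibiae of 1 young INK-ATTAC mouse, aged 6 months, and 1 old INK-ATTAC mouse, aged 24 months, and neither had been treated. INK-ATTAC mice carry an inducible caspase 8 driven by a fragment of the p16 promoter, so that cells with an active promoter fragment die when a dimerizing drug is given, and no drug was given here. Marrow released with Liberase and bone digested with collagenase were combined, depleted of blood lineage cells with magnetic beads and sorted for live CD45- cells, which the labels call mesenchymal. CITE-seq then read the mRNA of each cell together with an oligonucleotide-tagged CD24 antibody. With 1 mouse per age, age, animal and library cannot be told apart, and no test of age was possible.

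Notch receptors are surface proteins that are activated by ligands on a neighbouring cell. Binding of a Jagged or Delta-like ligand leads to cleavage of the receptor, first by an ADAM protease and then by gamma-secretase, and the released intracellular part moves to the nucleus, where it joins the DNA-binding protein RBPJ and coactivators of the Mastermind family. Targets of this complex include the Hes and Hey families of basic helix-loop-helix repressors and Nrarp, an ankyrin repeat protein that dampens the signal. In vessel walls Notch3 is known for its role in vascular smooth muscle cells and pericytes, and in bone the pathway is known to restrain osteoblast differentiation. The genes lie on the mouse genome (RefSeq, GRCm38.p6) as follows. The receptors are Notch1 (chr2:26457902-26503822), Notch2 (chr3:98013538-98150367) and Notch3 (chr17:32120820-32166896). The ligands are Jag1 (chr2:137081451-137116520) and Jag2 (chr12:112907803-112929812). The targets are Hes1 (chr16:30065357-30067796), Hey1 (chr3:8663359-8667038), Hey2 (chr10:30832359-30842783), Heyl (chr4:123233556-123249870) and Nrarp (chr2:25180758-25183339).

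Promoters are shown for Hey2 and Nrarp, the only targets with a promoter entry. Both had their highest level among the 11 cell groups in the vessel wall cells described below. By the mean of the mice, so did Hes1, Hey1 and Heyl. Each sequence covers the 250 bases before the annotated start (RefSeq, GRCm38.p6). The search was for GTGGGAA, a core of the RBPJ binding sequence, on either strand, and capitals mark a match. In Hey2 (chr10:30842784-30843033, minus strand) the match lies 207 bases before the start and reads TTCCCAC on the gene's strand. Nrarp (chr2:25180508-25180757, plus strand) had no match in this window.
Hey2: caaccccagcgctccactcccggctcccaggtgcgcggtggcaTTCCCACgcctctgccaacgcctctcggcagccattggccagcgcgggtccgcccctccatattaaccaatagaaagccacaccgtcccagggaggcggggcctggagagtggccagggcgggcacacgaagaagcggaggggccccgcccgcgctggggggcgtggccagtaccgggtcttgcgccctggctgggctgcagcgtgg
Nrarp: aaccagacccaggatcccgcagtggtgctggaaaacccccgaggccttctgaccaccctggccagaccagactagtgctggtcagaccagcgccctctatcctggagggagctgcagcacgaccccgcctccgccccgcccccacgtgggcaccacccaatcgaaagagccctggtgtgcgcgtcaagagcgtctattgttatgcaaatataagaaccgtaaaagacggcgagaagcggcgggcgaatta
Of the 7 Notch genes with a promoter entry, 1 held the motif, as did 1461 of all 27025 promoters (5.41%). Entries were found for Notch1, Notch2, Notch3, Jag1, Jag2, Hey2 and Nrarp, and Hes1, Hey1 and Heyl had none. A match describes letters only.

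After the study's filter (at least 200 genes and at most 20% mitochondrial UMIs per cell) 10063 young and 5607 old cells were kept, with 81076421 and 66702846 UMIs and a median of 6385 and 9711 UMIs per cell, and old cells were thus the deeper ones. Unique molecular identifiers (UMIs) count transcript molecules. The libraries shared 19 barcodes. Cells were grouped by marker genes other than the 10 Notch genes: 8499 young (84.5%) and 4414 old cells (78.7%) carried mesenchymal markers, and 989 and 689 carried blood markers in spite of the sort. Within the mesenchymal cells the groups were stromal (3756 young and 2282 old cells, with markers such as Lepr and Cxcl12), fibroblast (2435 and 1098), osteoblast (441 and 300), tendon or periosteum (359 and 153), chondrocyte (138 and 41) and mural, that is pericytes or smooth muscle of vessel walls (38 and 50). The levels of markers that set the groups describe them and are no independent check of their names. Per 1000000 UMIs (CPM), Lepr stood at 1179 in young and 1233 in old stromal cells, and Myh11, a smooth muscle myosin, at 3379 and 3736 in mural cells, of which 37 of 38 and 46 of 50 held a Myh11 UMI. No cell met the endothelial list, and Cdh5, an endothelial cadherin, was at 0 in the mural and in the osteoblast cells of both mice.

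The first question was whether the pathway was carried by mesenchymal or by blood cells. Levels are given in CPM throughout. UMIs were summed per mouse and group and tested with edgeR's quasi-likelihood test with the mouse as a block. The block takes up the shift between the 2 mice that all their sums share. The p-values thus rest on how far the group differences varied between the mice, with a spread mostly borrowed from other genes. Of the 10 genes, 8 were higher in mesenchymal cells, 1 was lower and 1 did not pass, where 70.5% of all 16032 genes tested differed in either direction. The count is a description, because Hey1 and Hey2 passed the filter on low counts through their mesenchymal sums alone.

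Notch3 stood at 54.1 and 60.8 CPM in young and old mesenchymal cells and at 0.548 and 0.736 in blood cells, from 8 and 9 UMIs. The 2 mice were close to each other and the cell classes far apart. The log2 difference was 6.23 (SE 0.24, adjusted p = 5.14e-05, edgeR). Jag1 had a like contrast, with 41.1 and 40.3 against 1.23 and 0.736 (log2 difference 5.11, SE 0.24, adjusted p = 7.64e-05). Among the targets, Hes1 had 300.2 and 285.9 CPM in mesenchymal cells against 13.0 and 6.79 in blood cells (4.68, SE 0.22, adjusted p = 7.78e-05). Heyl stood at 10.3 and 19.6 against 0.411 and 0.164, from 6 and 2 UMIs in blood cells (5.30, SE 0.48, adjusted p = 0.000514). Hey1 stood at 5.82 and 5.49 against 0.137 and 0.0818, from 2 and 1 UMIs in blood cells. Hey2 stood at 1.89 and 1.43 against 0.274 and 0.164, from 4 and 2 UMIs. Since the latter 2 genes entered the test through the class in which they were high, they are given by their levels alone, which were higher in the mesenchymal cells of both mice.

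The other receptors were shared between the classes. Notch2 stood at 104.3 and 67.9 CPM in mesenchymal cells and at 27.5 and 18.7 in blood cells, a log2 difference of 1.64 (SE 0.16, adjusted p = 0.000625, edgeR). Notch1 stood at 15.2 and 17.9 against 5.41 and 6.22, and its difference of 1.25 (SE 0.20, adjusted p = 0.00395) became -0.07 (adjusted p = 0.857) once each cell was thinned to 2000 UMIs and shallower cells were left out. Why the direction for Notch1 changed was not tested. Nrarp was the gene with the opposite contrast: 0.808 and 1.29 in mesenchymal cells against 4.04 and 3.03 in blood cells (log2 difference -2.04, SE 0.41, adjusted p = 0.00823). Jag2 was sparse everywhere, with 7 and 16 UMIs in mesenchymal and 10 and 5 in blood cells, and did not pass (-1.71, adjusted p = 0.102).

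**Figure D1:**
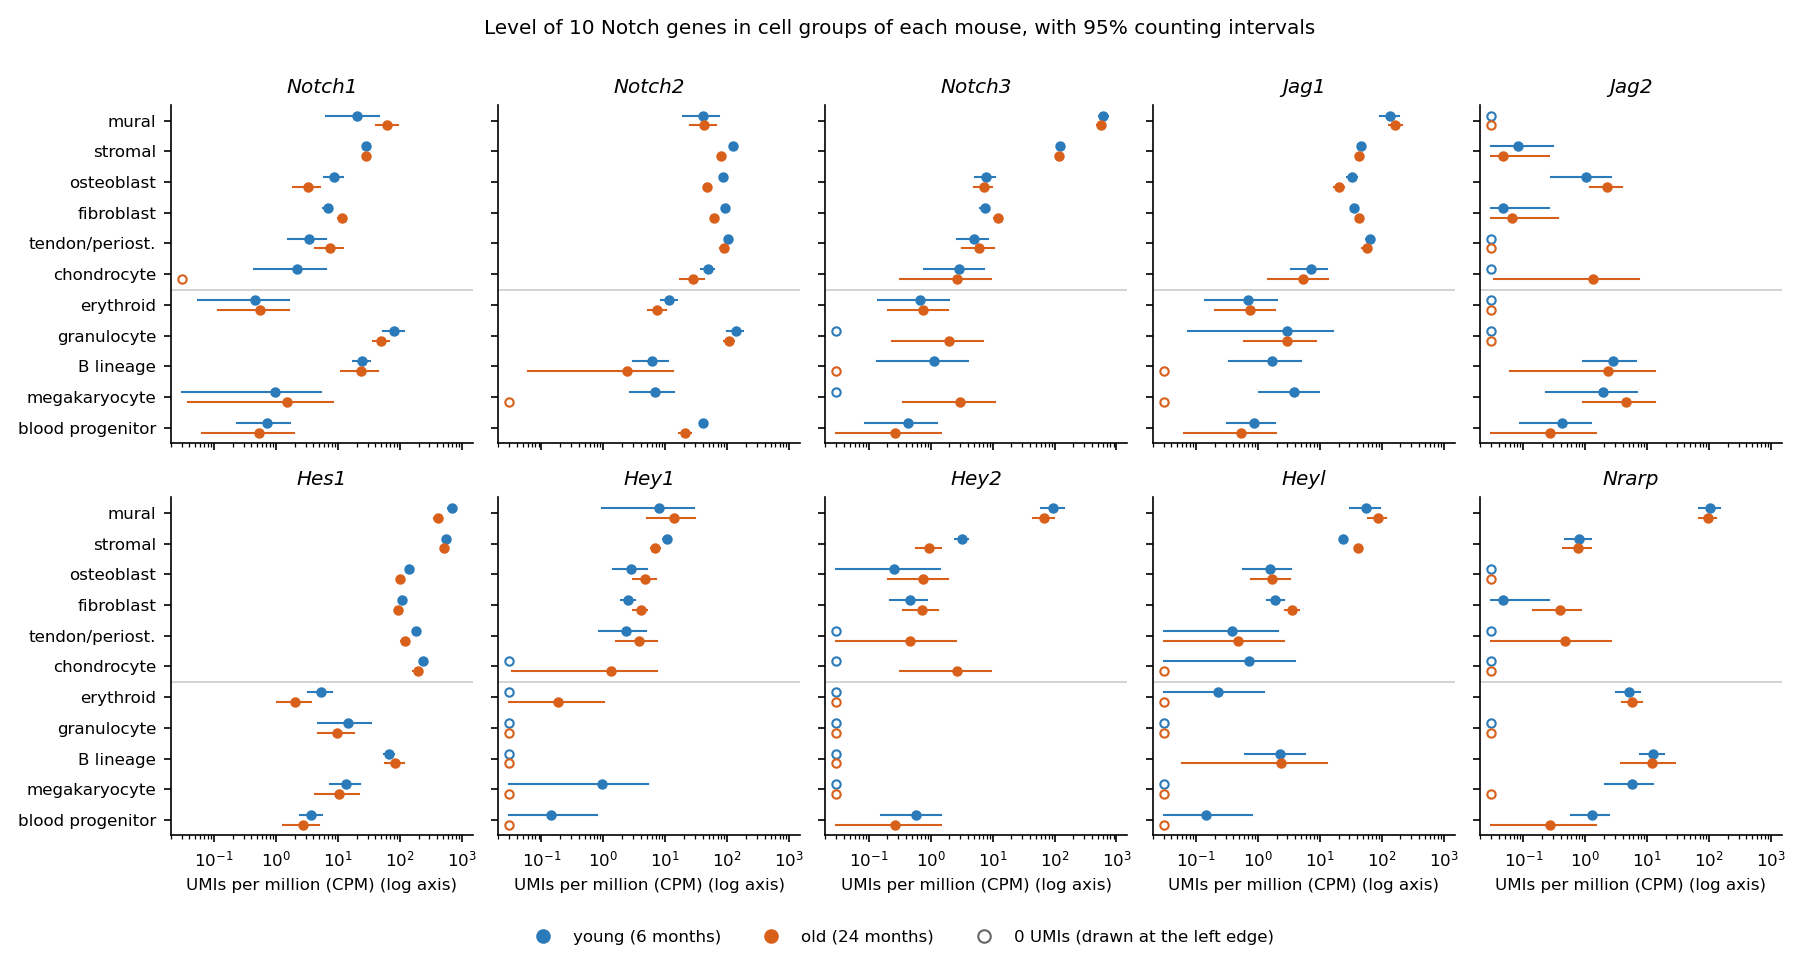
Level of each of the 10 genes (x axis, CPM, log scale) in 11 cell groups (y axis, mesenchymal groups above the grey line and blood groups below), with filled points for the young (blue) and old (orange) mouse, open points for 0 UMIs and bars for 95% counting intervals. Among these 11 groups Notch3, Hey2, Heyl and Nrarp reach their highest level in the mural group in both mice, whereas Notch2 reaches its highest level in granulocytes.

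Across the 11 groups the receptors had distinct orders, shown in the plot of levels by cell group, where bars are exact 95% Poisson intervals that, like all intervals given here, cover counting error only. Notch3 ran from mural cells (612.6 CPM in young and 559 in old cells) to stromal cells (121.5 and 117.8) and then dropped to 7.43 and 12.2 in fibroblasts, 7.74 and 7.21 in osteoblasts, 4.94 and 6.10 in tendon or periosteum cells and 2.88 and 2.62 in chondrocytes. Mural and stromal levels did not overlap between mice, nor did stromal and fibroblast levels. Fibroblasts and osteoblasts overlapped. The 5 blood groups held at most 3.01 CPM.

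Notch2 was spread more evenly. It stood at 136.6 and 106.5 CPM in granulocytes, 123.8 and 80.0 in stromal cells, 102.6 and 87.8 in tendon or periosteum cells, 91.2 and 61.8 in fibroblasts and 85.2 and 47.4 in osteoblasts, and each neighbour in that order overlapped with the next. Mural cells (40.0 and 41.9) and chondrocytes (49.0 and 27.6) came below them. In erythroid cells, which are deep (medians of 11966.5 and 15007 UMIs), Notch2 was at 11.6 and 7.42.

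Notch1 was highest in granulocytes (81.4 and 49.8 CPM), overlapping with mural cells (20.0 and 62.9, from 5 and 27 UMIs), which in turn overlapped with stromal cells (28.3 and 28.8). B lineage cells, in which Notch1 levels of 24.0 and 23.7 were measured, lay just under the stromal cells without overlap. Fibroblasts (6.82 and 11.8), osteoblasts (8.52 and 3.22) and tendon or periosteum cells (3.42 and 7.51) were lower and overlapped with one another. Chondrocytes had 3 young and 0 old Notch1 UMIs.

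For the ligands, Jag1 was highest in mural cells, at 136.1 and 165.4 CPM. Tendon or periosteum cells followed at 64.2 and 56.8, then stromal cells at 46.0 and 42.2 and fibroblasts at 34.9 and 43.1, the last 2 overlapping. Osteoblasts had 33.0 and 20.5, chondrocytes 7.20 and 5.25. The mesenchymal groups with the most Notch3, mural and stromal cells, also held Jag1, but the second place belonged to tendon or periosteum cells, where Notch3 was low. Jag2 had 21 young and 26 old UMIs in all kept cells. Of the 7 and 16 UMIs in mesenchymal cells 4 and 12 came from osteoblasts, and mural cells held 0 in both mice, which allows levels up to 14.8 and 8.59 CPM.

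The targets fell into broad and restricted patterns. Hes1, the most widely found of them, was highest in mural (704.6 and 412.2 CPM) and stromal cells (553.8 and 516.8), which overlapped, followed by chondrocytes (234.1 and 192.9), tendon or periosteum cells (179.3 and 119.7), osteoblasts (142.2 and 98.6) and fibroblasts (106.4 and 94.7). B lineage cells also held Hes1, at 67.5 and 82.9, while erythroid cells were at 5.25 and 2.04. In young mural cells 22.2% of the 176 Hes1 UMIs lay in 1 cell.

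Heyl followed Notch3: 56.1 and 86.2 CPM in mural cells, 23.4 and 41.0 in stromal cells, and at most 3.58 in the other mesenchymal groups. Hey1 was low, at 10.5 and 6.89 in stromal cells, and its mural levels of 8.01 and 13.97 rested on 2 and 6 UMIs and overlapped with them. Hey2 stood at 96.1 and 67.5 in mural cells, from 24 and 29 UMIs, against 3.16 and 0.950 in stromal cells. Nrarp stood at 104.1 and 95.5 in mural cells, from 26 and 41 UMIs, and at 0.791 and 0.760 in stromal cells, and was at 0 in osteoblasts, chondrocytes and granulocytes of both mice. Below the mural cells it was found in B lineage (12.3 and 11.8) and erythroid cells (5.02 and 5.75), and in megakaryocytes at 5.76 in young and 0 in old cells. Of its 59 young blood UMIs 22 were erythroid and 22 B lineage, and of the 37 old ones 31 and 5. The mural levels of Hey2 and Nrarp did not overlap with those of any other group.

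Each mesenchymal group was then compared with the other 5 in 1 fit over 12 sums. In mural cells 7 of the 9 genes tested were higher and 1 was lower, where 20.3% of all 12885 genes tested differed. The count itself is no support, because Nrarp passed the filter on low counts through its mural sums alone and Hey2 through its mural sums and 1 stromal sum. Values for each gene are therefore given as pooled ratios of mural to all other grouped mesenchymal cells. Notch3 was 10.5-fold higher in the young and 9.11-fold higher in the old mouse (fitted log2 difference to the mean of the other groups 5.63, SE 0.16, adjusted p = 4.21e-09, edgeR). Heyl was 4.88-fold and 4.11-fold higher (adjusted p = 9.54e-07), Jag1 3.36-fold and 4.14-fold (adjusted p = 2.3e-05), and Hes1 2.22-fold and 1.38-fold (adjusted p = 3.01e-05). The adjusted p-values belong to the fitted differences, and the pooled ratios were not tested. By pooled ratio all 4 were higher in both mice, but old mural Hes1 (412.2 CPM) lay below old stromal Hes1 (516.8).

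Hey2 was 58.9-fold higher in young mural cells, 24 UMIs in 38 cells against 87 UMIs in the other groups, and 78.7-fold higher in old mural cells, 29 against 38 UMIs (log2 counting intervals 5.16 to 6.55 and 5.55 to 7.03). Nrarp was 277.6-fold and 183.9-fold higher, 26 against 20 and 41 against 23 UMIs (log2 intervals 7.22 to 9.04 and 6.75 to 8.33). No p is given for these 2 genes, for the reason above. Their mural UMIs were spread over cells: 44.7% of young and 40.0% of old mural cells held a Hey2 UMI and 36.8% and 34.0% a Nrarp UMI. The cell with the most held 23.1% and 29.3% of the mural Nrarp UMIs. Notch1 was also called higher (fitted difference 2.65, SE 0.60, adjusted p = 0.00988), but its pooled ratio was 1.23 in young cells, with a log2 interval from -1.33 to 1.52, and 3.41 in old cells. Notch2 was the receptor that was lower in mural cells, at 0.382 and 0.604 of the other groups (fitted difference -0.87, SE 0.23, adjusted p = 0.0198). Notch2 did not pass without the replicate block (-0.96, adjusted p = 0.139, edgeR) or after thinning to 2000 UMIs (-1.42, adjusted p = 0.0709). Hey1 did not pass (1.90, adjusted p = 0.131).

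**Figure D2:**
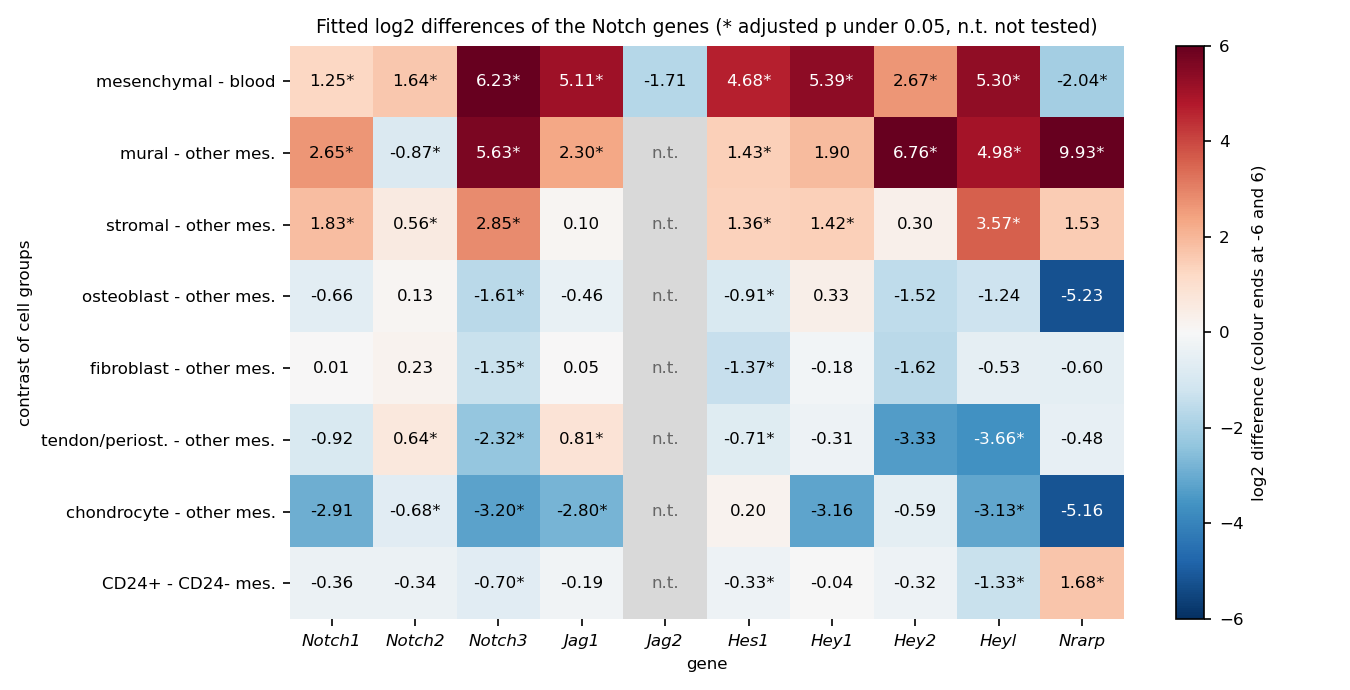
Fitted log2 differences of the 10 genes (columns) in 8 contrasts of cell groups (rows), coloured from blue (lower) to red (higher) with the value in each cell, an asterisk for an adjusted p under 0.05 and n.t. for not tested. Notch3 and Heyl are past the threshold in both the mural (5.63 and 4.98) and the stromal row (2.85 and 3.57), and Jag1 in the mural (2.30) but not the stromal row (0.10). Asterisks of Hey2 and Nrarp in the mural row and of Hey1 and Hey2 in the mesenchymal row are no support. These genes would not have passed the filter on low counts without the group in which they were high.

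Stromal cells, the Lepr and Cxcl12 expressing cells of the marrow, had 6 of 9 genes higher while 3 did not pass, where 33.8% of all genes differed. Heyl led with pooled ratios of 10.99 and 9.61 (fitted log2 difference 3.57, SE 0.18, adjusted p = 2.24e-07, edgeR), followed by Notch3 with 9.998 and 5.85 (2.85, SE 0.14, adjusted p = 2.21e-07). Of the 11 groups, stromal cells had the second highest level of both genes. Muscle cells, which were too few to enter a test, held more of both, at 138.5 and 229.7 CPM of Notch3 and 97.8 and 157.2 of Heyl. Their Heyl was also above the mural levels of 56.05 and 86.18, which lay within the counting intervals of the muscle cells. Hes1 was 4.30-fold and 4.84-fold higher (adjusted p = 1.25e-05), Notch1 4.27-fold and 2.86-fold (adjusted p = 0.00114) and Hey1 4.25-fold and 1.63-fold (adjusted p = 0.0137). Notch2 was 1.39-fold and 1.35-fold higher (adjusted p = 0.0038, or 0.0795 without the replicate block, edgeR). Here too the adjusted p-values belong to the fitted differences, and the pooled ratios were not tested. Jag1 (fitted difference 0.10, SE 0.15, adjusted p = 0.67), Hey2 (0.30, adjusted p = 0.764) and Nrarp (1.53, adjusted p = 0.378) did not pass. The plot of fitted differences sets these rows beside each other: the mural and stromal rows share Notch1, Notch3, Hes1 and Heyl as higher, and Notch2 was lower in the former and higher in the latter. These contrasts share their comparison groups.

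The remaining groups had mostly lower values. Tendon or periosteum cells had 2 genes higher and 3 lower of 9, where 12.0% of all genes differed: Jag1 was higher by 0.81 (SE 0.16, adjusted p = 0.00853, edgeR) with pooled ratios of 1.62 and 1.41, and Heyl, with 1 UMI in each mouse, was lower (-3.66, adjusted p = 0.00863). Notch2 was called higher there (0.64, adjusted p = 0.00814), yet the pooled ratio came to 0.98 in young and 1.29 in old cells. Notch3 (-2.32, adjusted p = 0.000887) and Hes1 (-0.71, adjusted p = 0.00985) were lower. With a stricter marker rule, which changed the cells of each group and left mural cells too few to enter, Notch3 (-1.27, adjusted p = 0.0602), Hes1 (-0.41, adjusted p = 0.0943), Heyl (-2.29, adjusted p = 0.162) and Notch2 (0.50, adjusted p = 0.0754) did not pass. Without the replicate block Hes1 (adjusted p = 0.0644), Heyl (0.065) and Notch2 (0.141) did not pass either. Chondrocytes had 4 genes lower while 5 did not pass, where 20.8% of all genes differed: Notch2 (-0.68, adjusted p = 0.0167), Notch3 (-3.20, adjusted p = 0.000332), Jag1 (-2.80, adjusted p = 0.000117) and Heyl (-3.13, adjusted p = 0.0182, or 0.104 with DESeq2, from 1 and 0 UMIs). Hes1 did not pass in chondrocytes (0.20, adjusted p = 0.365).

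In osteoblasts 2 of 9 genes passed, both lower, where 26.9% of all genes differed, and in fibroblasts likewise 2 of 9, where 26.1% did. They were Notch3 (-1.61, adjusted p = 0.00105 in osteoblasts; -1.35, adjusted p = 0.00125 in fibroblasts) and Hes1 (-0.91, adjusted p = 0.00102; -1.37, adjusted p = 6.18e-05). With the stricter marker rule mural cells, the group with the most Notch3, were no longer among the groups compared against. The Notch3 differences were then -0.57 (adjusted p = 0.161, edgeR) and -0.35 (adjusted p = 0.297). The part of the missing mural group in this change was not tested. In pooled UMIs, most of which were stromal on the other side, the log2 ratio of Notch3 was -3.08 and -3.36 in osteoblasts and -3.71 and -2.94 in fibroblasts. Jag1 in osteoblasts (-0.46, adjusted p = 0.0746) and Heyl in osteoblasts (-1.24, adjusted p = 0.0915) did not pass.

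A UMI of Hes1 was found in 49.0% of young and 55.6% of old mesenchymal cells, of Notch2 in 48.0% and 47.6%, of Jag1 in 21.4% and 27.1% and of Notch3 in 21.2% and 30.4%. After thinning each cell to 2000 UMIs the shares were 29.8% and 29.7% for Hes1, 20.8% and 13.2% for Notch2, 7.43% and 7.57% for Jag1 and 10.5% and 12.1% for Notch3. For Hes1 the larger share in the deeper old library was then no longer seen, and for Jag1 the shares lay close together. In erythroid cells, taken as a measure of free RNA, Notch3 UMIs were found in 1.18% and 1.48% and Hes1 UMIs in 7.48% and 4.07% at a greater depth. Notch2 UMIs were found there in 15.8% and 12.2%. Mural cells held Notch3 in 86.8% and 90.0% (thinned 67.6% and 66.0%) and stromal cells in 41.8% and 49.1% (thinned 21.5% and 20.5%). Nrarp UMIs in 0.377% and 0.680% of mesenchymal cells lay below the erythroid shares of 6.69% and 10.0%. For Nrarp the erythroid share is not taken as a measure of free RNA. Its erythroid levels of 5.02 and 5.75 CPM were above those over all kept cells (1.59 and 1.87).

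Stromal cells with a Notch3 UMI (1569 young and 1120 old) were set beside those without (2187 and 1162). Hes1 stood at 735.6 CPM with and 399.7 without in the young mouse, and at 649.3 and 363.6 in the old mouse. Heyl stood at 33.6 and 14.8, and at 55.0 and 24.9. Notch1 stood at 39.3 and 19.0, and at 35.4 and 21.1. These 3 genes were higher in the cells with a Notch3 UMI in both mice, while Jag1 (45.4 and 46.5, then 43.4 and 40.8) and Notch2 (119.7 and 127.2, then 78.5 and 81.7) had overlapping intervals.

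**Figure D3:**
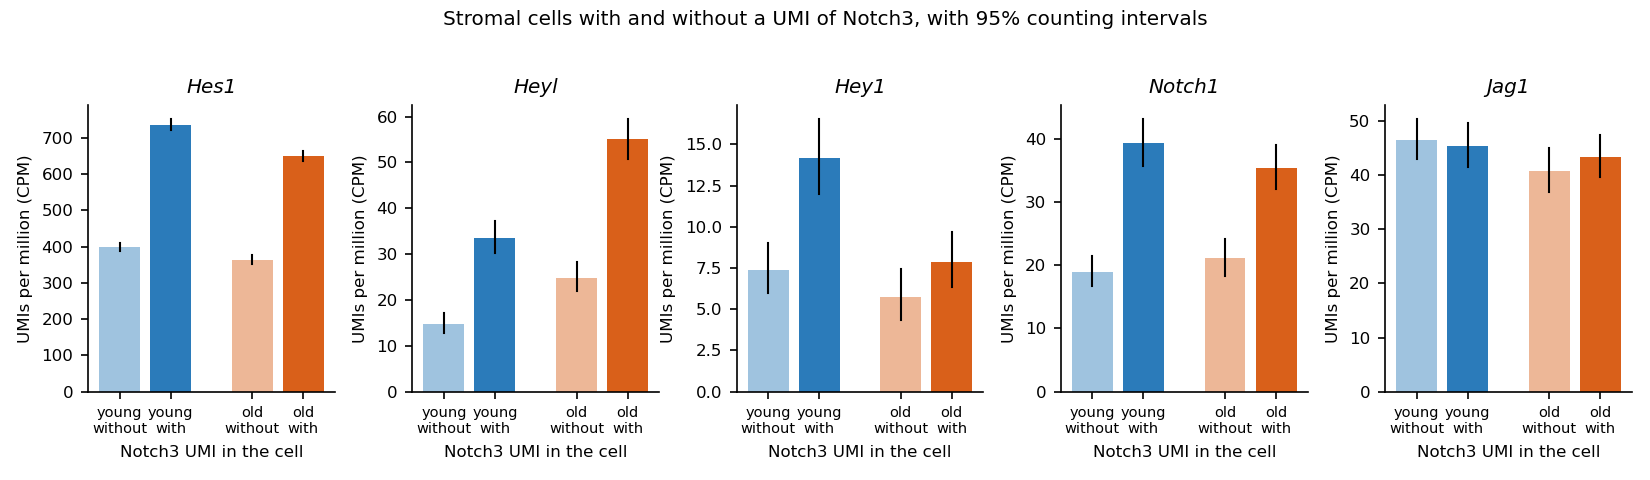
Levels of 5 genes (y axes, CPM, from 0) in stromal cells without (pale bars) and with (dark bars) a Notch3 UMI, young mouse in blue and old mouse in orange, with 95% counting intervals. Hes1, Heyl and Notch1 are higher with a Notch3 UMI in both mice, and the intervals of Jag1 overlap. Hey1 stands at 7.38 without and 14.2 with it in the young mouse. In the old mouse Hey1 stands at 5.7 and 7.9, with overlapping intervals.

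Cells with a Notch3 UMI also differed in other ways. Their median depth was 6297 against 5037 UMIs in the young and 9505 against 7933.5 in the old mouse, and the stromal markers were higher in them: Lepr stood at 1490 against 915.3 and 1522 against 899.8, and Cxcl12 at 25127 against 15755 and 21218 against 13324 CPM. Of the 7 mural markers, 5 were higher in them in both mice and Kcnj8 and Cspg4 were lower. The 7 summed to 195.2 against 115.9 CPM in the young and 274.2 against 124.2 in the old mouse, and none was at 0. Rgs5 stood at 50.7 against 7.84 and at 25.8 against 8.09, and Myh11 at 31.4 against 5.38 and at 41.8 against 2.05. In stromal cells without a UMI of any mural marker, a set chosen after seeing the data, Hes1 stood at 707.9 with a Notch3 UMI (1125 cells) and 458.3 without (1597) in the young mouse, and at 646.8 (778 cells) and 408.7 (847) in the old mouse. Heyl stood there at 34.1 and 17.8, and at 58.5 and 30.4, and Notch1 at 38.6 and 21.0, and at 35.0 and 25.8. All 3 genes were higher with a Notch3 UMI in both mice there too, by a smaller ratio than in all stromal cells. The part of stromal identity and depth in these differences was not tested. The plot of stromal cells with and without a Notch3 UMI shows both mice.

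Tissue digestion induces early response genes, and a list of 18 such genes made up 12951 CPM in young and 11763 in old stromal cells, 18961 and 18122 in mural cells, 9120 and 6592 in osteoblasts and 1426 and 1227 in erythroid cells. When stromal cells were divided into quartiles by their share of these UMIs, Hes1 went from 285.4 CPM in the lowest through 312.8 and 551.7 to 999.8 in the highest quartile of the young mouse, and through 230.3, 329.6, 503.0 and 966.3 in the old mouse. Jag1 and Nrarp were also highest in the top quartile in both mice, Jag1 with 44.2 in the lowest and 55.1 in the highest quartile and then 35.7 and 47.4, and Nrarp with 0 and 13 and then 2 and 12 UMIs. Hey1 was so in the young mouse (8.19 to 14.7). Notch3 went from 165.7 to 117.7 and from 151.7 to 106.9, and Heyl from 31.8 to 22.4 and from 51.7 to 33.7. Both were lowest in quartile 3, Notch3 at 93.45 and 95.86 and Heyl at 15.99 and 32.24. Notch2 went from 142.3 to 115.4 and from 88.8 to 71.7. The stromal marker Lepr fell as well, from 1568 to 1107 and from 1540 to 1021. The list made up 450 and 530 CPM in the lowest stromal quartile, where Hes1 stood at 285.4 and 230.3. In the lowest quartile of fibroblasts the list made up 1797 and 1674 CPM, and Hes1 stood at 53.6 and 59.0. Quartiles were cut within each group and are thus not matched between groups. The part of digestion in the Hes1 levels was not tested.

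**Figure D4:**
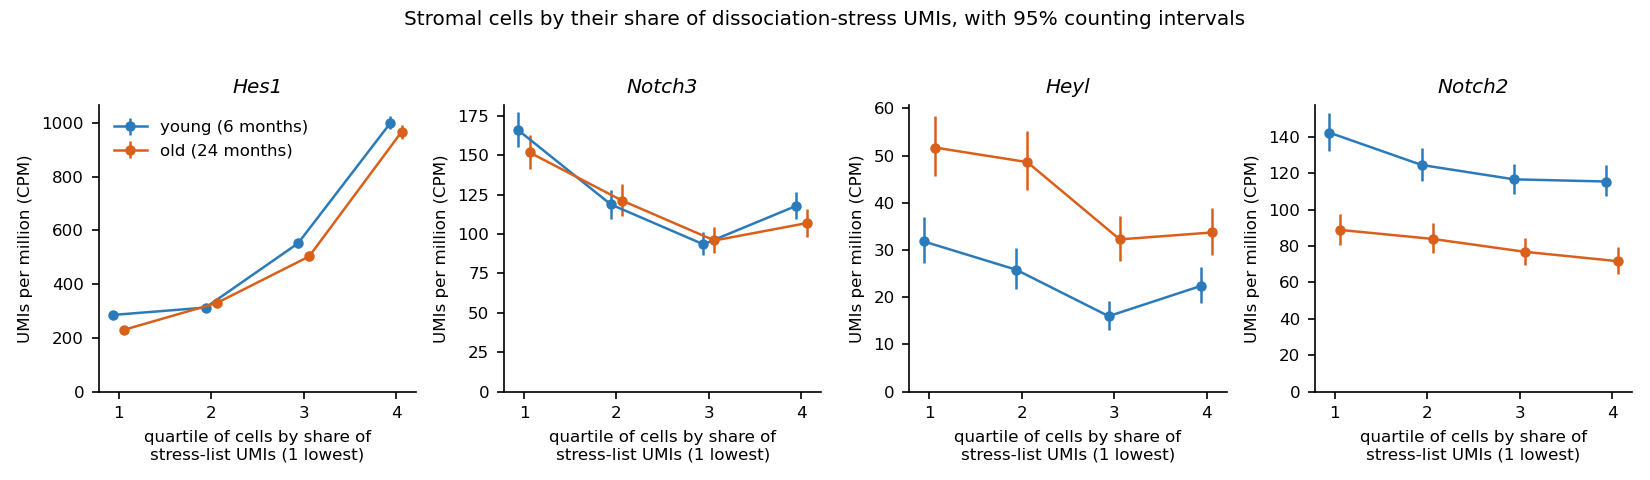
Levels of 4 genes (y axes, CPM, from 0) in stromal cells by quartile of their share of dissociation-stress UMIs (x axis, 1 lowest), young mouse in blue and old mouse in orange, with 95% counting intervals. Hes1 runs from 285.4 to 999.8 in the young and from 230.3 to 966.3 in the old mouse, whereas Notch3, Heyl and Notch2 are higher in the first than in the last quartile.

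The genes whose pattern was most like each member were sought over the 22 sums (11 groups in 2 mice), by Pearson's r of log2 levels with 5 CPM added. The sums share groups and libraries, so r is a description. Hey2 was at most 3.16 CPM outside the mural cells, under the 5 CPM added, so its r rests mostly on the mural sums. Notch3 was most like Gm26632 (r = 0.98), Tmem51os1 (0.979) and Carmn (0.977), a smooth muscle transcript. Heyl was most like Gm26632 (0.973) and Notch3 itself (0.972). For Hey2 the closest were Higd1b (0.992), Map3k7cl (0.989) and Olfr558 (0.988), and for Nrarp Rbm24 (0.952), Scn4b (0.946) and Cnn1 (0.932), a smooth muscle calponin. Jag1 was closest to Prickle2 (0.973), Hes1 to Plxnb2 (0.953), Hey1 to Slc16a7 (0.945), Notch2 to Degs1 (0.908) and Notch1 to Ankrd44 (0.875). Among the members, Notch3 and Hey1 (0.908) were alike, and Notch2 and Nrarp were not (-0.262). The r of Hey2 and Nrarp (0.865) restates that both were highest in mural cells.

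The second comparison was that of the study, between CD24+ and CD24- mesenchymal cells. By the antibody threshold set in each library 673 young and 221 old mesenchymal cells were CD24+, and 7826 and 4193 were CD24-. Of the 9 genes tested 3 were lower and 1 was higher in CD24+ cells, where 12.2% of 15271 genes differed. Notch3 stood at 37.3 against 56.2 CPM in the young and 30.8 against 62.9 in the old mouse, and Heyl at 4.94 against 11.0 and 6.16 against 20.6. Both were lower in CD24+ cells of each mouse, with log2 differences of -0.70 (SE 0.11, adjusted p = 0.00371, edgeR) and -1.33 (SE 0.20, adjusted p = 0.00234). Hes1 stood at 252 against 306.2 and 199.9 against 291.9 (-0.33, SE 0.08, adjusted p = 0.0297), and 21.4% of its UMIs in old CD24+ cells came from 1 cell.

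Nrarp was higher, at 1.74 against 0.691 and 4.00 against 1.10 (1.68, SE 0.46, adjusted p = 0.0447, or 0.224 with DESeq2), from 12 UMIs in 6 cells and 13 UMIs in 4 cells, of which 50% and 46.2% lay in 1 cell. Notch1 (-0.36, adjusted p = 0.178), Notch2 (-0.34, adjusted p = 0.0865), Jag1 (-0.19, adjusted p = 0.257), Hey1 (-0.04, adjusted p = 0.964) and Hey2 (-0.32, adjusted p = 0.761) did not pass. None of the 4 calls was made without the replicate block, although 4 of the 9 genes then had an unadjusted p under 0.05. DESeq2, which kept the block, called 2. With edgeR and no block the adjusted p was 0.0609 for Notch3 and 0.148 for Heyl, and at the upper quartile of the antibody count Heyl differed by only -0.16 (adjusted p = 0.34).

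The CD24+ cells were deeper, with medians of 9092 against 6147.5 UMIs in the young and 13441 against 9866 in the old library, and held other shares of the groups: stromal cells were 34.6% of young and 34.4% of old CD24+ cells, against 45.0% and 52.6% of CD24- cells, and 11.6% and 18.1% were osteoblasts, against 4.64% and 6.20%. Within the stromal group alone, an alternative chosen after seeing the data, 4 of 9 genes were lower in CD24+ cells, where 7.91% of all genes differed: Notch3 (-0.45, adjusted p = 0.0348, edgeR), Heyl (-1.11, adjusted p = 0.00994), Hes1 (-0.38, adjusted p = 0.0293) and Notch2 (-0.52, adjusted p = 0.0352). Nrarp did not pass there (1.99, adjusted p = 0.211, edgeR). In the 76 old stromal CD24+ cells, the cell with the most held 40.6% of the Hes1, 21.4% of the Heyl and 20% of the Notch3 UMIs. This fit was not repeated without the replicate block.

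The rest of the pathway was read from a list of 55 other genes. In mesenchymal against blood cells 27 were higher and 11 lower of 50 tested, where 38.4% of all genes were higher and 32.1% lower, with a median difference of 0.69 against 0.17 over all genes. The extremes were Postn (6.45) and Ccn3 (6.05), matrix-associated proteins, Dlk1 (4.97), a non-canonical ligand, and Numbl (4.77), an inhibitor of Notch, on the higher side, and Mfng (-6.44), a receptor glycosyltransferase, and Egfl7 (-5.26) on the lower side. The Delta-like ligands and Notch4 were low: Dll1 stood at 0.986 and 0.684 CPM in mesenchymal cells and Dll4 at 0 and 0.0201, and the receptor Notch4 at 3.995 and 2.90 in stromal cells. Parts downstream of the ligands were found at higher levels, such as Rbpj at 184.8 and 187.5 and Adam10 at 59.6 and 57.5 CPM in mesenchymal cells.

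In stromal cells 12 of 43 list genes were higher and 4 lower, where 21.5% of all genes were higher and 12.3% lower, led by Lfng (3.74, SE 0.28, adjusted p = 3.79e-06, edgeR), the glycosyltransferase that modifies Notch receptors, at 34.1 and 27.9 CPM against at most 4.51 in the other mesenchymal groups. Dtx4 (2.41) and Dtx3l (1.66), of the Deltex family, and the gamma-secretase parts Aph1c (1.64) and Ncstn (1.28) were also higher, and Ccn3 was lower (-1.04). In mural cells 3 were higher and 1 lower of 43, where 10.7% and 9.63% of all genes were. Neurl1b (5.57, adjusted p = 0.000196, edgeR), a ubiquitin ligase that acts on Notch ligands, was higher, at 36.0 and 39.6 CPM. Tle5 (1.09), placed with the corepressors in the list, and Dtx3 (0.76) were higher too. Rbpj, the DNA-binding partner of the receptors, was lower (-1.07, adjusted p = 0.00468), at 80.1 and 76.9 CPM. The list's median in mural cells was -0.27, near the -0.18 of all genes.

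In fibroblasts 16 of 43 were higher, where 17.0% of all genes were, and 27 did not pass, led by Ccn3 (3.79), Dlk1 (2.48) and the corepressor Tle1 (1.12). In osteoblasts 9 were higher, among them Adam10 (1.70), the protease of the first receptor cleavage, and 10 lower, among them Ccn3 (-3.54) and the coactivator Maml2 (-1.47), where 15.3% of all genes were higher and 11.6% lower. In chondrocytes 1 was higher, the ligand-directed ubiquitin ligase Neurl1a (4.17), and 10 lower, among them the coactivator Maml3 (-2.11), where 12.7% and 8.09% were. In tendon or periosteum cells 5 were higher and 1 lower, where 9.05% and 2.96% were. Between CD24+ and CD24- cells 2 of 49 were higher, Postn (2.15, adjusted p = 3.14e-06, edgeR) and Neurl1a (1.88), and 3 lower, Dtx3l (-0.80), Ccn3 (-0.67) and Tle1 (-0.66), where 6.11% of all genes were higher and 6.11% lower.

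The last comparison set the old beside the young mouse. It has no test, and a gene with at least 50 UMIs in both mice together was counted as past 2-fold in either direction. Over all kept cells 0 of 9 Notch genes were past 2-fold, where 4.99% of all genes were, and over mesenchymal cells 0 of 9, where 3.39% were. The ratios farthest from 1 over mesenchymal cells were those of Heyl, 19.6 against 10.3 CPM (1.90-fold higher in the old mouse, interval 1.72 to 2.11), Nrarp, 1.29 against 0.808 from 64 and 50 UMIs (1.59-fold, 1.08 to 2.36), and Notch2, 67.9 against 104.3 (0.651 of the young level, 0.624 to 0.679). Of these Nrarp UMIs 26 young and 41 old ones were mural, and the ratio within mural cells was 0.917 (0.548 to 1.56). Mural cells were 38 of 8499 young and 50 of 4414 old mesenchymal cells. The part of this share in the Nrarp ratio was not tested, and the ratio reversed with thinning. Notch3 (1.13), Jag1 (0.982), Hes1 (0.953) and Hey1 (0.944) lay near 1.

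**Figure D5:**
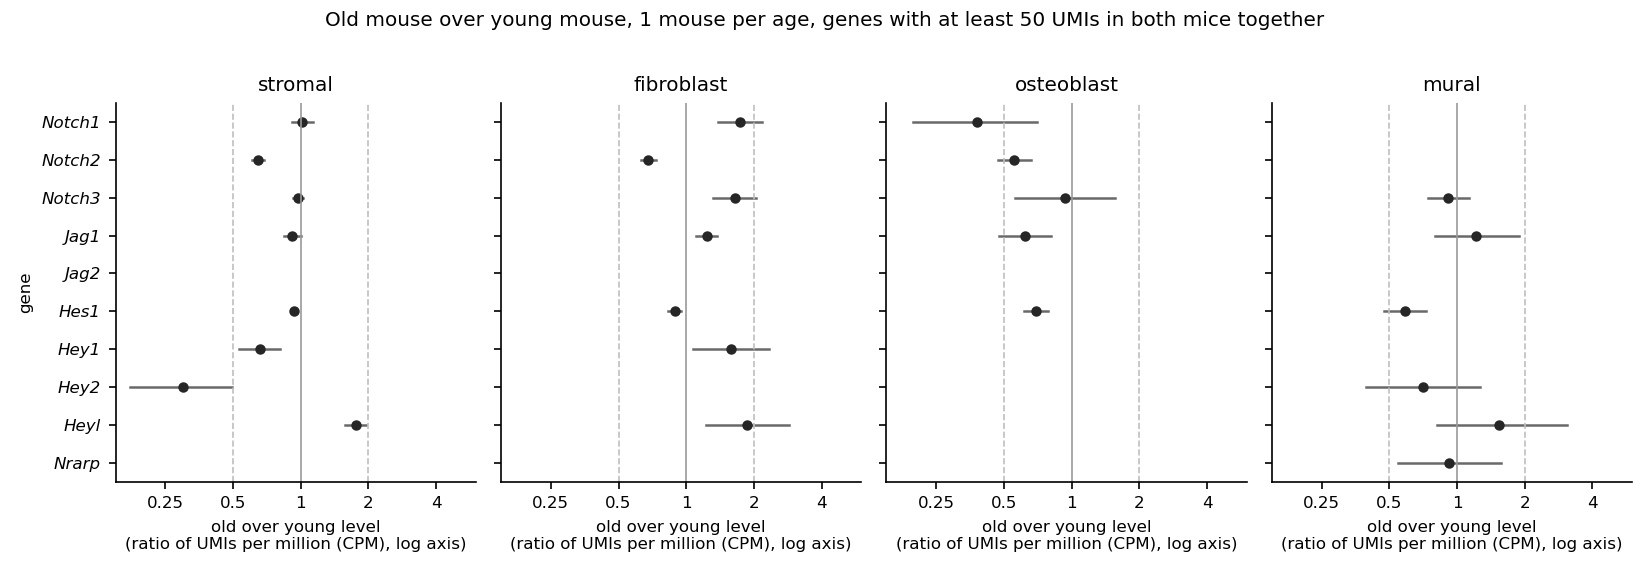
Old over young level (x axes, ratio of CPM on a log scale, dashed lines at 0.5 and 2) of Notch genes with at least 50 UMIs in both mice together, in 4 mesenchymal groups, with 95% counting intervals. Notch2 lies below 1 in stromal cells (0.646), fibroblasts (0.678) and osteoblasts (0.556), and Heyl above 1 in stromal cells (1.75) and fibroblasts (1.87).

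Within groups the 2 genes kept their direction, as the plot of old over young levels shows. Notch2 was lower in the old mouse in stromal cells (0.646), fibroblasts (0.678), osteoblasts (0.556), chondrocytes (0.563) and tendon or periosteum cells (0.856, interval 0.706 to 1.04), and also in blood cells (0.677), but in mural cells, with 10 and 18 UMIs, the ratio was 1.05 (0.458 to 2.54). Heyl was higher in stromal cells (1.75, 1.57 to 1.95), fibroblasts (1.87, 1.22 to 2.88) and mural cells (1.54, 0.812 to 3.08). In stromal cells 1 of 8 Notch genes was past 2-fold, where 2.60% of all genes were. This was Hey2, 20 against 76 UMIs and 0.950 against 3.16 CPM (0.300, 0.174 to 0.497), a ratio that was -0.86 on the log2 scale after thinning in place of -1.74. Stromal Hey1 was at 0.657 (0.532 to 0.809).

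In osteoblasts 1 of 5 was past 2-fold, where 5.33% of all genes were: Notch1, with 33 and 17 UMIs, was at 0.378 (0.198 to 0.699) of the young level. Osteoblast Jag1 (0.620, 0.475 to 0.807) and Hes1 (0.693, 0.614 to 0.783) were lower too. In fibroblasts 0 of 7 were past 2-fold, where 2.90% of all genes were, and Notch1 (1.73, 1.38 to 2.17), Notch3 (1.64, 1.32 to 2.05), Hey1 (1.58, 1.08 to 2.32) and Jag1 (1.23, 1.11 to 1.37) were higher. In mural cells Notch3 (0.913), Hey2 (0.703), Nrarp (0.917) and Jag1 (1.22) had intervals that included 1, while Hes1 was at 0.585 (0.472 to 0.725).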

How the data were processed

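Single-cell mRNA and CD24 antibody counts of 2 mice were used. The authors deposited counts, that is whole UMIs per gene and barcode with no normalization, in a matrix for each mouse. Cell Ranger 6.1.1 wrote them, per the file headers; the release in the methods is older. The submitters' processing notes name mm10, R 4.0.3 and Seurat 4.0. Matrices hold barcodes that Cell Ranger called as cells. A 3′ library with UMIs counts molecules near transcript ends and does not separate isoforms, and free RNA is counted with a cell.

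The 10 genes and all lists were chosen with earlier results of these data known. Cells were filtered at 200 genes and 20% mitochondrial UMIs. A cell joined the group of which it held the largest share of markers, at least 50%, ties joined none, and cells with mesenchymal and blood markers (161 young and 197 old) were left out. This scoring rule was set after the files were seen. A cell also counted as mesenchymal, with no finer group, with 4 of 7 general mesenchymal markers (1332 and 490 cells). The mesenchymal groups with at least 20 cells in each mouse entered the tests. CD24+ cells exceeded the Otsu threshold of log(1 + antibody count), 319 in the young and 410 in the old library. Scrublet (scanpy 1.11.5) called 269 young (2.67%) and 57 old (1.02%) cells doublets, which were kept and removed in an alternative.

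UMIs were summed per mouse and group and tested with edgeR 4.0.16 in R 4.3.3 (TMM factors, filterByExpr, glmQLFit and glmQLFTest, two-sided, mouse as a block, Benjamini-Hochberg over all genes tested, threshold 0.05). A group was contrasted with the mean of the log levels of the other mesenchymal groups, and the standard error is the log2 difference over the square root of F. The block comes from the design, since all sums of a mouse come from 1 animal; deviations of mesenchymal and blood sums from their class means correlated by 0.256 over 9273 genes. Both broad fits leave 1 residual degree of freedom, so the spread is mostly borrowed from other genes. Fits were tested on simulated data with known changes. DESeq2 1.42.0 was an alternative. Intervals are exact Poisson or conditional 95% intervals, and a count of 0 was given an upper limit of 3 counts or its exact interval. Depth was 81076421 UMIs in young and 66702846 in old kept cells. All 10 genes are named in each comparison, up to 6 genes of the wider list past the threshold with the largest change, and the 3 genes most like each member among those with at least 100 UMIs. Promoters and positions come from RefSeq tables of GRCm38.p6.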

Additional observations from a re-analysis of the deposited data

Results flagged for a closer look

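In 3 genes the ratio of old to young level went opposite ways in different cell groups, with 95% counting intervals on either side of 1. Notch1 was 1.73 times the young level in fibroblasts (146 young and 178 old UMIs) and 0.378 times in osteoblasts (33 and 17 UMIs). Jag1 was 1.23 times the young level in fibroblasts (747 and 649 UMIs) and 0.620 times in osteoblasts (128 and 108 UMIs). Hey1 was 1.58 times the young level in fibroblasts (54 and 60 UMIs) and 0.657 times in stromal cells (252 and 145 UMIs). The differences between groups were not tested, since each age is 1 mouse. Over all genes the median log2 ratio was -0.137 in osteoblasts, 0.023 in fibroblasts and 0.025 in stromal cells. The sum of the stress list was 9120 CPM in young and 6592 in old osteoblasts, and its part in these ratios was not tested.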

How the results depend on the processing

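With 1 mouse per age and 2 mice for the other comparisons, counting intervals do not cover differences between animals, and no count of calls exists within 1 mouse. Of the alternative values for single genes, 764 kept direction and call or moved by less than the spread, 187 moved, 13 gained and 33 lost the call, and 7 reversed. Counts of Notch genes in mesenchymal against blood, mural and stromal contrasts stayed within 1.5 times. Testing without the filter on low counts raised the osteoblast count from 2 to 4.

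Without the replicate block the CD24 comparison called 0 of the 4 Notch genes and 245 of the 1866 genes in all, and tendon or periosteum 2 of 5. With DESeq2 the CD24 counts were 2 and 1006, and within the stromal group alone, added after seeing the data, 1095 genes in all. A stricter marker rule left 1 Notch gene in osteoblasts and 1 in tendon or periosteum cells.

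Thinning each cell to 2000 UMIs, which leaves fewer UMIs to test, moved most counts. For all genes it left 902 in the CD24 comparison, 956 of 2677 in chondrocytes, 2098 of 3359 in fibroblasts, 1384 of 2618 in mural cells, 1389 of 3466 in osteoblasts, 2757 of 4358 in stromal cells and 867 of 1548 in tendon or periosteum cells. For the Notch genes it left 2 in the CD24 comparison, 2 in chondrocytes, 1 in fibroblasts, 1 in osteoblasts and 3 in tendon or periosteum cells. It reversed Notch1 in mesenchymal against blood cells (-0.07), Heyl in chondrocytes (1.11) and Notch3 in osteoblasts (0.04). Pooled UMIs of the young mouse, a ratio added after seeing the data, reversed Notch2 in tendon or periosteum cells (-0.03). The causes of the reversals were not tested.

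For old over young, thinning gave 1 Notch gene past 2-fold over all kept cells, 0 in stromal cells, 0 in osteoblasts and 1 in fibroblasts, and 302 of 503 genes over mesenchymal, 190 of 344 over stromal, 132 of 516 over osteoblast and 158 of 355 over fibroblast cells. Removing doublets gave 1 in fibroblasts (Heyl, 1.03 on the log2 scale), and a 10% mitochondrial limit gave 0 in osteoblasts, where fewer UMIs left Notch1 (-1.35) under the minimum of 50. Over mesenchymal cells Hes1 reversed to 0.07 with thinning and to 0.04 with a mean over cells, and Nrarp to -1.20 with thinning. In the old mouse 6 Notch genes had a UMI in at least 10% of mesenchymal cells and 3 after thinning.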

Other observations

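A small set of cells with skeletal muscle markers, 31 young and 17 old, entered no test. Pax7, a transcription factor of muscle stem cells, stood at 627.3 and 374.8 CPM in them and the muscle actin Acta1 at 10631 and 14353. Notch3 stood at 138.5 (95% interval 80.7 to 221.7) and 229.7 (138.3 to 358.8), and Heyl at 97.8 (50.5 to 170.8) and 157.2 (83.7 to 268.8). Hes1 was at 244.4 and 278.1. Notch1 was at 97.8 and 24.2, from 12 and 2 UMIs, and Hey1 at 65.2 and 0, from 8 and 0 UMIs, so these differed between the mice. Hey2 and Nrarp, which marked the mural cells, had 0 UMIs in the muscle cells of both mice, which allows up to 30.1 and 44.6 CPM.

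The mural cells were also divided by Myh11, a smooth muscle gene, and by Kcnj8 and Abcc9, channel genes of pericytes. Most had Myh11 and neither channel gene (31 young and 35 old cells), 6 and 11 had both kinds, and 1 and 4 had a channel gene without Myh11. Notch3 stood at 585.2 and 581.9 CPM in the first kind and at 710 and 572.5 in the cells with both. Hey2 stood at 112.7 and 91.1 in the first kind, from 21 and 23 UMIs, and at 52.0 and 47.7 in the cells with both, from 3 and 6 UMIs. Nrarp had 25 and 26 UMIs in the first kind and 0 and 15 in the cells with both. Pericytes without Myh11 were too few for a level.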
